A study of Mus musculus with 78 samples.

Results

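Esr1 encodes estrogen receptor alpha, the main nuclear estrogen receptor of the liver. Isyna1, Mmd2, Osbpl3, Tnfrsf19 and Tff3 are genes whose liver transcripts were higher in mice fed 17-alpha-estradiol, and they are described here together with that receptor. The 6 genes were picked by symbol from the 43629 genes of the count table. The choice of the first 5 rested on the comparison of 17-alpha-estradiol with control libraries at 6 months in these same data, so their values in that comparison are given as a description and without a test. Esr1 was added as the receptor.

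Estrogens act in liver mainly through estrogen receptor alpha, which binds DNA as a dimer at palindromic response elements and recruits coactivators or corepressors. The compound 17-alpha-estradiol is a stereoisomer of 17-beta-estradiol that differs in the orientation of the hydroxyl group on carbon-17, binds the classical receptors less strongly, and is known for extending lifespan in male mice. Liver is also a tissue in which growth hormone sets much of the difference between the sexes.

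Poly(A)-selected RNA from frozen mouse livers had been sequenced in 78 libraries, 3 mice in each of 26 groups. All 6-month and 12-month groups were UM-HET3 mice, a genetically heterogeneous stock, of both sexes, on Purina 5LG6 chow. At 6 months the groups were controls and mice treated for 2 months with 17-alpha-estradiol (14.4 ppm in the diet), acarbose (1000 ppm), rapamycin (42 ppm), Protandim (1200 ppm) or calorie restriction (40%). At 12 months they were controls and mice treated for 8 months with acarbose (1000 ppm), rapamycin (14 ppm) or calorie restriction (40%). The 3 other designs held males alone. C57BL6/J males aged 14 months had eaten 0.12% methionine for 12 months or a 0.86% methionine control diet. Growth hormone receptor knockout males (GHRKO, stock (C57BL6/JxBALB/cByJ)/F2) and Snell dwarf males (stock (PW/JxC3H/HeJ)/F2, which lack pituitary growth hormone, prolactin and thyrotropin) were 5 months old and were compared with littermates. Both mutations are carried in every tissue from birth, unlike the treatments. 17-alpha-estradiol was given at 1 dose and 1 age.

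Libraries held 15521588 to 37778510 assigned counts, and the 12 libraries of the 17-alpha-estradiol comparison 21876573 to 32691964. All 8 hepatocyte markers were detected in those 12 libraries, with a summed level of 77078 to 117391 CPM (counts scaled to library size). In the receptor knockout check, Ghr had 818, 1366 and 1337 counts in the 3 knockout libraries and 10809, 11232 and 7407 in their controls. Kidney, skeletal muscle, adrenal or pancreas markers exceeded 1000 summed counts in 9 of the 78 libraries, called other-tissue libraries below. Many of the results, but not all, are given with and without them. The one among the 12 libraries was 17-alpha-estradiol male 2, where 12 kidney markers summed to 35054 counts, against at most 28 in the other 11. The 6 adipocyte markers, which were not used to leave out libraries, exceeded 1000 summed counts in 4 of the 78, among them this library (1006) and control male 3 of 6 months (1806).

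On GRCm38, Isyna1 (ENSMUSG00000019139) lies on chromosome 8 from 70594373 to 70597290. Mmd2 (ENSMUSG00000039533) lies on chromosome 5 from 142562358 to 142608800, and Osbpl3 (ENSMUSG00000029822) on chromosome 6 from 50293330 to 50456201. Tnfrsf19 (ENSMUSG00000060548) spans 60963875 to 61046490 of chromosome 14, Esr1 (ENSMUSG00000019768) 4611593 to 5005614 of chromosome 10, and Tff3 (ENSMUSG00000024029) 31125306 to 31129646 of chromosome 17. All 6 are protein coding and counts are summed over their exons. They sit on 6 different chromosomes, and no other annotated gene of the table overlaps their exons.

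Because a liganded estrogen receptor binds DNA, the RefSeq promoters (GRCm38.p6, 250 bases before to 50 after a start site) of the members were searched on both strands for the palindromic estrogen response element GGTCANNNTGACC and for its half-site GGTCA, which is contained in the full element. RefSeq promoters matched 5 of the 6 genes: Isyna1, Mmd2, Osbpl3, Tnfrsf19 and Esr1. 1 promoter is shown for each of the 4 responsive genes and for the receptor, 5′ to 3′ on the strand of the gene, with half-site letters in capitals.
Isyna1, chr8:70594231-70594530, plus strand: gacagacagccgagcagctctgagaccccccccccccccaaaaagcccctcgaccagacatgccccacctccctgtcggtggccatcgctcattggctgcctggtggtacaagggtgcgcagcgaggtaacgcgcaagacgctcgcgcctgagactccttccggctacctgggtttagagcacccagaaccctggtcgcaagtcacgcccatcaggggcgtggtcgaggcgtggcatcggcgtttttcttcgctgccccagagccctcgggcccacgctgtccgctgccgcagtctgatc
Mmd2, chr5:142608703-142609002, minus strand: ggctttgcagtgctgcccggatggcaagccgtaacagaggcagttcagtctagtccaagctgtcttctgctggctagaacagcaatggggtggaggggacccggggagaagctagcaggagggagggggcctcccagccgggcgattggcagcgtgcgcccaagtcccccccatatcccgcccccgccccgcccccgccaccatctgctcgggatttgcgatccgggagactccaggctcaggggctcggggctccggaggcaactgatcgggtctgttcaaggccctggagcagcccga
Osbpl3, chr6:50456121-50456420, minus strand: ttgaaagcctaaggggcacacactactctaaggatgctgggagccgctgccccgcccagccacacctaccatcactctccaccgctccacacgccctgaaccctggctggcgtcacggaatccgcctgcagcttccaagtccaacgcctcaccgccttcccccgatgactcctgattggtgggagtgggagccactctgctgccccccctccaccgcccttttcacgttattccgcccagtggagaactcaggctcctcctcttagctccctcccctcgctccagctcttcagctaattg
Tnfrsf19, chr14:61046806-61047105, minus strand: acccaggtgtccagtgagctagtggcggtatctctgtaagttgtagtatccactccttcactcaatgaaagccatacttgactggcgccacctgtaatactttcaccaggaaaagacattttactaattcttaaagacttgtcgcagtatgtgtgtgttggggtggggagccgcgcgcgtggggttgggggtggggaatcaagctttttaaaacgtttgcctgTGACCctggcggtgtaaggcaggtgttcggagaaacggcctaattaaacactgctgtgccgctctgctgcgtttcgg
Esr1, chr10:4611739-4612038, plus strand: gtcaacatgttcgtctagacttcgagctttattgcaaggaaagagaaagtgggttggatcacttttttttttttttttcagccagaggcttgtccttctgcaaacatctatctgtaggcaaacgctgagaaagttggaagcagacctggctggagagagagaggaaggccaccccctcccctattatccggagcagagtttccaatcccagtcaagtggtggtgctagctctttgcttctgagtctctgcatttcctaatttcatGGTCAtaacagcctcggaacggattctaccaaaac
The full element was found in 0 of the promoters searched for these genes and in 23 of all 32851 promoters of 300 bases (0.07%). The half-site occurred in 40.5% of all promoters. Here it occurred once in the Tnfrsf19 promoter, on the opposite strand at position -27 from the start site, and once in the Esr1 promoter, at position 16. A second promoter of Tnfrsf19 and a second of Esr1 held neither motif. The promoters of Isyna1, Mmd2 and Osbpl3 were GC-rich, at 66%, 67% and 62%, and the Esr1 promoter shown was 46.3% GC. A match of letters is a description of these windows and says nothing about receptor binding.

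All levels below are CPM scaled by TMM over the 78 libraries, in the order of replicates 1, 2 and 3. Per kilobase of exon, the median over the 78 libraries was 2.62 FPKM for Isyna1, 1.57 for Esr1, 1.03 for Tnfrsf19, 0.958 for Mmd2, 0.892 for Osbpl3 and 0.242 for Tff3. All 6 were thus transcripts of low abundance in this tissue, and on this per-length scale the medians of Isyna1 and Tff3 lay at the ends of the order. The range over libraries was widest for Tff3, from 0 to 31.6 FPKM, while Isyna1 ran from 1.21 to 11.2 FPKM.

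The receptor transcript itself did not separate treated from control livers. Esr1 measured 21.7, 21.4 and 29.1 CPM in control females and 31.7, 25.5 and 18.9 CPM in treated females. In males it measured 17.5, 18.1 and 17.0 CPM in controls and 10.2, 21.4 and 17.9 CPM under treatment. Treated and control libraries overlapped in both sexes, and the log2 fold change was 0.07 ± 0.29 (SE, n = 3 per group) in females and -0.09 ± 0.29 in males. Without 17-alpha-estradiol male 2, the library with kidney markers, the male value was -0.32. In these bulk libraries fewer cells of a type and less RNA per cell cannot be told apart.

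Isyna1, the inositol-3-phosphate synthase that makes inositol phosphate from glucose 6-phosphate, was higher in every treated library than in any control of its sex. Control females had 5.74, 4.77 and 8.03 CPM and treated females 15.8, 13.4 and 13.9 CPM. Control males had 7.93, 7.43 and 8.44 CPM and treated males 26.1, 27.2 and 21.5 CPM. The log2 fold change was 1.22 ± 0.23 in females and 1.65 ± 0.23 in males, and 1.58 in males without the kidney-marked library.

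Mmd2, also named Paqr10, encodes a Golgi membrane protein of the progestin and adipoQ receptor (PAQR) family that promotes Ras signalling at that compartment. Its control level was lower in males than in females. Control females had 2.80, 2.20 and 3.65 CPM and treated females 14.6, 18.1 and 18.9 CPM. Control males had 0.846, 0.856 and 1.48 CPM and treated males 10.3, 7.29 and 13.2 CPM. Groups did not overlap in either sex, and the log2 fold change was 2.57 ± 0.50 in females and 3.25 ± 0.53 in males, and 3.46 in males without the kidney-marked library. The SE was larger than that of Isyna1 (0.23) in both sexes. Control counts were low in males, at 91 in all in the 3 control males beside 260 in the control females.

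Osbpl3 encodes ORP3, a lipid-binding protein of the oxysterol-binding protein family that acts at contacts between the endoplasmic reticulum and the plasma membrane. Control females had 10.2, 7.40 and 6.96 CPM and treated females 19.6, 29.4 and 22.0 CPM. In males controls spread from 9.92 to 27.1 CPM, with 13.9 CPM between them, and treated libraries had 40.4, 34.6 and 41.9 CPM. Groups did not overlap in either sex. The log2 fold change was 1.53 ± 0.37 in females and 1.19 ± 0.37 in males, and leaving out single male libraries moved the male value between 0.92 and 1.70, the highest without control male 3, and it was 1.28 without the kidney-marked library.

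Tnfrsf19, a TNF receptor superfamily member also called TROY and known as a target of Wnt signalling, had low control levels in both sexes. Control females had 1.99, 2.49 and 3.03 CPM and treated females 7.40, 7.13 and 5.81 CPM. Control males had 3.21, 3.66 and 4.45 CPM and treated males 11.0, 4.79 and 7.28 CPM. The groups of males were separated by a narrow gap, between control male 3 at 4.45 CPM and treated male 2 at 4.79 CPM. The log2 fold change was 1.44 ± 0.39 in females and 1.02 ± 0.39 in males. It was 0.67 in males without treated male 1 and 1.27 without treated male 2, which is the kidney-marked library.

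Tff3, a small secreted trefoil peptide of mucous epithelia that is known as an estrogen-responsive gene in breast cancer cells, went from almost no reads to a measurable transcript in females. Control females had 1, 0 and 1 counts and treated females 115, 413 and 262 counts. Summed over each group and scaled by library totals, treated females had 407 times the control level (exact 95% interval 112 to 3370, which covers counting error only). In males, controls had 6, 23 and 68 counts and treated livers 112, 77 and 100 counts. Male groups approached each other without overlapping, with a wide spread among the controls, and their log2 fold change was 1.80 ± 0.65. Leaving out single male libraries moved this value between 1.31 and 2.83, the highest without control male 3, the library with adipocyte markers, whose part in the value was not tested. It was 2.02 without the kidney-marked library.

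**Figure D1:**
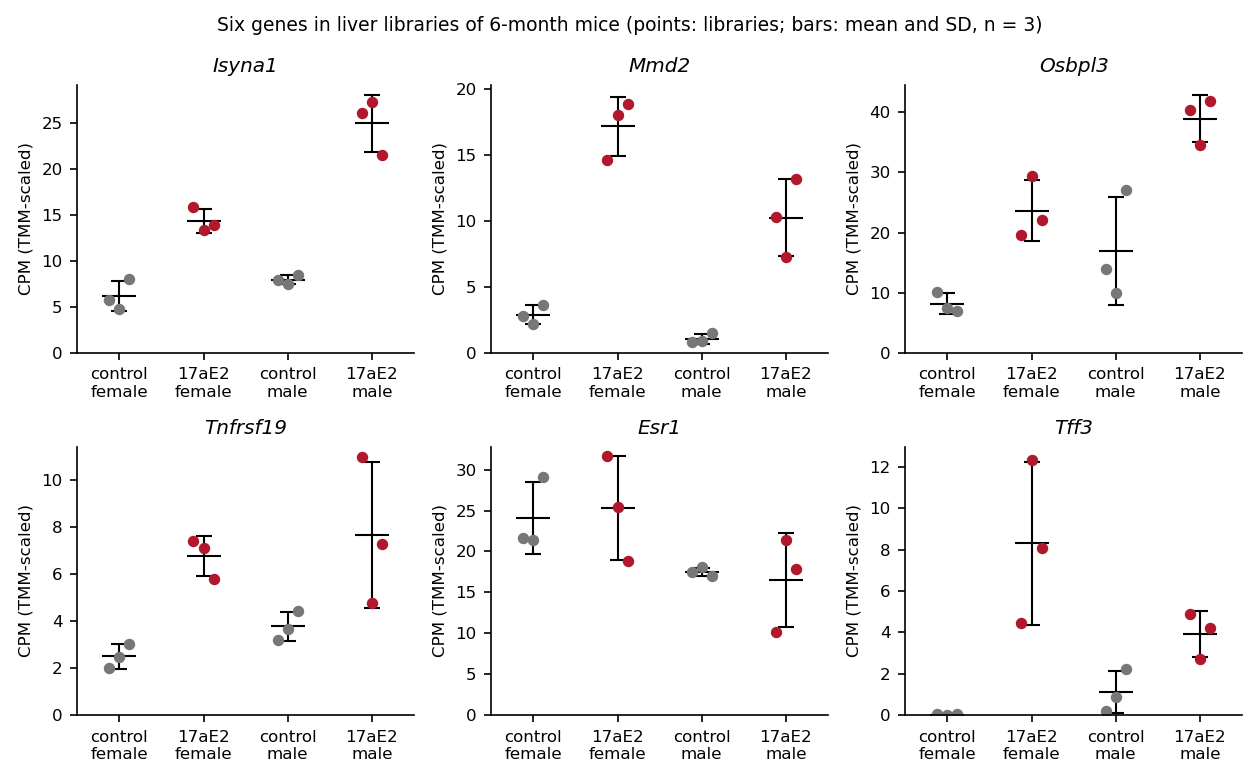
Level of the 6 genes in each liver library of control and 17-alpha-estradiol mice at 6 months, in TMM-scaled CPM on linear axes that start at 0. Points are libraries and bars the mean and SD of 3. Treated libraries (red) lie above all controls of their sex (grey) in every panel except that of Esr1, where they overlap. The genes other than Esr1 were chosen on this comparison, and the share of all genes that separate in this way was not counted.

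Other goblet cell genes were at low counts beside Tff3. Its paralogs Tff1 and Tff2 had at most 10 and 22 counts in any of the 12 libraries, and the goblet cell mucin Muc2 at most 4. Zg16 had at most 3 counts and the goblet cell transcription factor Spdef at most 3. Of the 9 trefoil and goblet cell genes listed, only Fcgbp besides Tff3 passed the filter on low counts, with 13 to 21 counts in control and 14 to 39 in treated females. Treated male 1, with 112 Tff3 counts, had the highest counts of several of these genes among the treated males, with 22 of Tff2, 8 of Agr2, 37 of Fcgbp and 2 of Clca1. In the 3 treated females, where Tff3 was highest, Tff2, Agr2 and Clca1 had 0 counts and Muc2 3 to 4.

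The genes around these members are given by lists chosen with earlier results of these data known. Over all 14816 genes tested, 2.87% passed an adjusted p of 0.05 (edgeR quasi-likelihood test, Benjamini-Hochberg) for 17-alpha-estradiol in females, 219 higher and 206 lower, and 0.0607% in males, 9 higher and 0 lower. The female number depended on single libraries and fell from 425 to 20 without control female 1, while in males 79 genes passed without treated male 1 or without treated male 3. The named calls below come from this fit, which holds all 36 libraries of 6 months. Those of Cyp1a2, Impad1, Tnfrsf14 and Mup20 are given from this fit alone. Whether the named calls held without control female 1 is not given.

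Among the 14 other nuclear receptors, coactivators and corepressors of the estrogen receptor list, 0 passed in either sex. Their log2 fold changes ran from -0.38 (Foxa1, a pioneer factor that opens chromatin for the receptor) to 0.44 (Esrra, the estrogen-related receptor) in females, and Foxa1 had the highest value in males, at 0.33. The list median was -0.04 in females and 0.04 in males, beside 0.02 and -0.01 over all genes.

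Of 19 tested genes known as estrogen-responsive in liver or other tissues, 1 rose and 2 fell in females and 0 passed in males. The values of the 2 that fell are given. Igfbp2, a binding protein of insulin-like growth factors, fell by 1.21 ± 0.28 on the log2 scale (adjusted p = 0.0239) and Apoa4, an apolipoprotein of triglyceride-rich particles, fell by 1.87 ± 0.52 (adjusted p = 0.0477). The Apoa4 call was lost in the fit without the 9 libraries with other-tissue markers (adjusted p = 0.0832), while that of Igfbp2 held there. In males Igfbp2 was at -0.51 and Apoa4 at -0.06, and the highest of the 19, Socs2, was at 0.59 ± 0.57.

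Of 22 tested genes of estrogen synthesis, conjugation and transport, 1 passed. Cyp1a2, a cytochrome P450 that hydroxylates estrogens, rose by 1.52 ± 0.30 in females (adjusted p = 0.00845) and had a log2 fold change of -0.28 ± 0.29 in males. Sult1e1, the estrogen sulfotransferase, was at -1.01 ± 0.92 in females and 1.01 ± 1.33 in males and did not pass in either.

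Most of the inositol pathway did not pass. Of 17 other tested genes of inositol synthesis, transport and use, 0 rose and 2 fell in females. These were Impad1, a phosphatase of the inositol monophosphatase family (-0.51 ± 0.12, adjusted p = 0.0273), and Ippk, the kinase that makes inositol hexakisphosphate (-0.46 ± 0.13, adjusted p = 0.0491, and 0.0702 without the other-tissue libraries). Impa1, the enzyme acting directly after Isyna1, was at -0.05 ± 0.12 in females and -0.07 ± 0.12 in males. In males 1 of the 17 passed, Miox, the inositol oxygenase of the renal tubule (9.74 ± 1.75, adjusted p = 0.0252), which was at 2.32 and no longer passed without the other-tissue libraries, treated male 2 among them.

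The relatives of the other members were tested in the same way. Of the 10 other oxysterol-binding proteins tested, 0 passed, with log2 fold changes from -0.16 to 0.80 in females and from -0.62 to 1.20 in males. Of the 8 other PAQR genes tested, 0 passed, and Mmd, the closest relative of Mmd2, was at -0.26 ± 0.16 in females and -0.04 ± 0.16 in males. Of the 22 other TNF receptor superfamily genes tested, 1 rose in females and 0 passed in males. This was Tnfrsf14, the herpesvirus entry mediator of immune cells (1.17 ± 0.31, adjusted p = 0.0376). Its family median in females was 0.48 against 0.02 over all genes.

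Summed markers separated treated from control livers for Kupffer cells in females and for cholangiocytes in males. The other ranges given here overlapped. The 8 Kupffer cell markers summed to 334 to 391 CPM in treated females and 144 to 274 CPM in control females, without overlap, and to 185 to 226 CPM in treated and 129 to 207 CPM in control males. 1 of the 8, Cd5l, passed in females (0.99 ± 0.25, adjusted p = 0.0315, and 0.052 without the other-tissue libraries), and 0 in males. The 8 lymphocyte markers summed to 5.44 to 10.2 CPM in treated and 2.25 to 7.68 CPM in control females. The 8 cholangiocyte markers, of which at most 1 was at 0 in a library, summed to 78.7 to 90.6 CPM in treated females against 70.9 to 83.4 CPM in controls. In males the treated range was 84.3 to 112 CPM, above the 70.3 to 83.3 CPM of controls, and Spp1 passed among them (0.98 ± 0.19, adjusted p = 0.0443) but not without the other-tissue libraries, treated male 2 among them. The 6 adipocyte markers summed to 2.91 to 4.61 CPM in treated and 3.08 to 9.38 CPM in control females, and to 2.80 to 40.3 CPM in treated and 3.75 to 61.4 CPM in control males, and 0 of the 5 tested passed in either sex. Their median log2 fold change in females was -3.40, over genes of which most had very few counts. Skeletal muscle markers had at most 40 summed counts in any of the 12 libraries, and 0 of the 3 tested passed. The part of these cells in the values of Mmd2, Tnfrsf14, Tnfrsf19 or Tff3 was not tested.

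Sex-biased liver genes were examined because the members were measured in both sexes. Of 20 textbook female-biased genes 0 passed in either sex, with medians of 0.03 in females and -0.25 in males. Of 19 tested male-biased genes, Mup20, a major urinary protein, rose in females (2.98 ± 0.76, adjusted p = 0.0339) and 0 passed in males. Of the 12 growth hormone signalling genes 0 passed in either sex.

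How the members behaved under every other intervention was then tested, each against the control of its own stock, age and sex. Of 102 pairs of a gene and a comparison, 100 passed the filter on low counts, and 14 passed an adjusted p of 0.05, 10 higher and 4 lower. Over all genes in the same 17 comparisons 5.04% passed, 2.41% higher and 2.63% lower. At 6 and 12 months the filter ran on all groups of an age together. Tff3 thus counted as tested in female comparisons where it had almost no reads. Protandim females of 6 months had 2 counts against 2, and acarbose females of 12 months 1 against 0. Among the 14 calls, that of Tff3 in calorie-restricted males of 6 months also rested on this joint filter. With only the compared groups fitted, Tff3 did not pass the filter there. The 8 other comparisons at 6 months share their control libraries with the comparison that chose the genes, so a high or low control moves both. In the 9 comparisons that share no library with it, 10 of 52 tested pairs passed, Esr1 among them. Of these, 3 were in GHRKO and 3 in Snell dwarf males, where 14.8% and 20.1% of all genes passed. In the others the share of all genes ran from 0% (acarbose females of 12 months) to 4.72% (calorie-restricted females of 12 months).

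**Figure D2:**
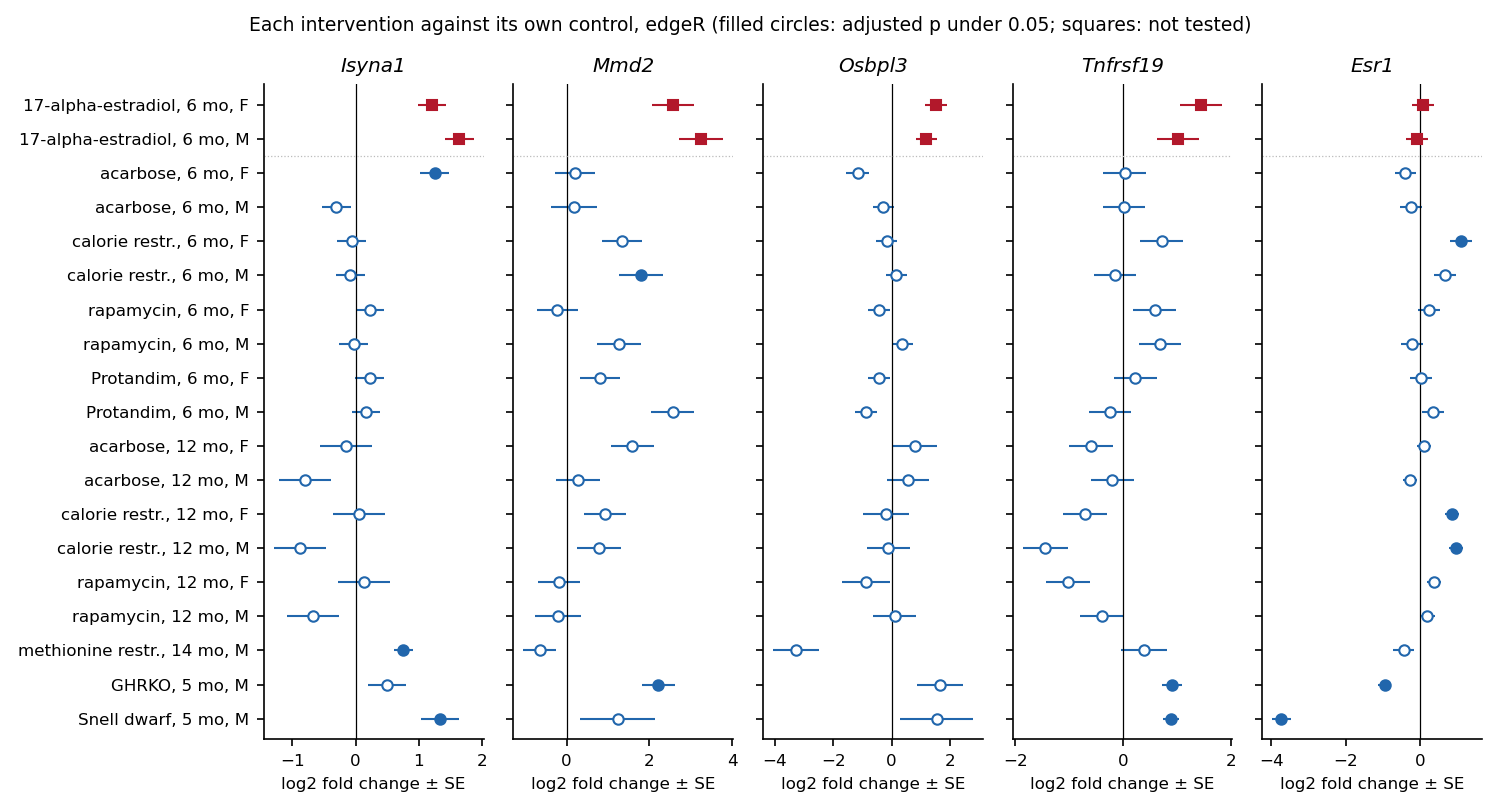
Log2 fold change and SE of 5 genes in each intervention against its own control, with 17-alpha-estradiol as red squares, not tested, and the 17 other comparisons as circles, filled where the adjusted p was under 0.05. Osbpl3 has 0 filled circles, and Esr1 has filled circles on both sides of 0.

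Esr1, which overlapped its controls under 17-alpha-estradiol, was called in 5 of the other comparisons. Under calorie restriction it was higher. Restricted females of 6 months had 43.9, 42.8 and 68.0 CPM against 21.7, 21.4 and 29.1 CPM (log2 fold change 1.11 ± 0.29, adjusted p = 0.00967), and were 1 call among the 6 genes where 17% of all genes passed. Restricted males of that age had 24.9, 34.4 and 25.3 CPM against 17.5, 18.1 and 17.0 CPM, without overlap, but did not pass (0.68 ± 0.29, adjusted p = 0.153, and 0.50 without the other-tissue libraries).

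At 12 months both sexes passed. Restricted females had 69.5, 64.7 and 44.0 CPM against 38.3, 28.1 and 33.0 CPM (0.85 ± 0.19, adjusted p = 0.0156), the 1 member called where 4.72% of genes passed. Restricted males had 47.1, 43.0 and 41.1 CPM against 22.9, 19.0 and 25.9 CPM (0.97 ± 0.20, adjusted p = 0.00955), again the 1 member called, where 3.09% passed. Every restricted library lay above every control of its sex and age.

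These calls differed in how they held. The male call at 12 months held without each library in turn. The female call at 6 months was lost without control 1 (adjusted p = 0.0508) or restricted 3 (0.0594). The female call at 12 months was lost without control 2 (0.0747), restricted 1 (0.0638) or restricted 2 (0.0706), and with only the compared groups fitted (0.0965). Restricted female 1 of 12 months carried 3616 counts of adrenal markers, and the value without it and the other marked libraries was 0.74 (adjusted p = 0.0522). Restricted female 2 and male 2 of 6 months carried muscle markers (20132 and 2831 counts), and the female value without the marked libraries was 1.21 (adjusted p = 0.0172).

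Esr1 was lower in both dwarf lines. GHRKO livers had 6.28, 6.41 and 6.21 CPM against 11.5, 14.4 and 10.7 CPM in their controls (-0.94 ± 0.17, adjusted p = 0.00709). Snell dwarf livers had 0.845, 1.64 and 1.19 CPM against 14.1, 19.3 and 15.6 CPM (-3.73 ± 0.25, adjusted p = 4.29e-05). Both calls held without each library in turn, and the Snell value was -3.52 without Snell dwarf 1, which carried 5848 counts of muscle markers. Over all genes 14.8% were called in GHRKO and 20.1% in Snell dwarf males, and 3 of the 6 members were called in each.

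Other receptors and cofactors of the estrogen receptor list, named here after their values were seen, moved in the same livers. Of the 14 tested besides Esr1, 1 rose and 3 fell in each line. In GHRKO livers Esrra rose (0.58 ± 0.13) and the corepressor Ncor1 fell (-0.61 ± 0.17). In Snell dwarf livers Esrra rose (0.69 ± 0.11), and Ncor1 (-0.70 ± 0.13) and the coactivator Ncoa2 (-0.59 ± 0.13) fell.

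Across the 26 groups mean Esr1 ranged from 59.4 ± 13.6 CPM (SD, n = 3) in restricted females of 12 months to 1.22 ± 0.40 CPM in Snell dwarf males. When the groups were put in order of their means, neighbours were separated beyond the range of their libraries at 2 of 25 steps, between Protandim males of 6 months and acarbose males of 12 months, and between GHRKO and Snell dwarf. The 17-alpha-estradiol groups took places 10 (females, 25.3 ± 6.4 CPM) and 18 (males, 16.5 ± 5.7 CPM) from the top. Strain, age and sex differ along this order.

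Isyna1 was called higher in 3 other comparisons and lower in 0. Acarbose-treated females of 6 months had 13.2, 16.9 and 13.9 CPM, against the same controls at 5.74, 4.77 and 8.03 CPM (1.25 ± 0.23, adjusted p = 0.000759). This was the 1 member called there, where 10.6% of all genes passed, and the call held without each library in turn. Acarbose males of that age had 6.12, 6.42 and 6.93 CPM, below every control male at 7.43 to 8.44 CPM, and did not pass (-0.30 ± 0.23, adjusted p = 0.731, and -0.35 without the other-tissue libraries). At 12 months acarbose females had 4.41, 4.52 and 4.03 CPM, within the range of their controls.

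The other 2 calls were in males. Methionine-restricted males had 9.52, 11.0 and 10.7 CPM against 6.35, 6.88 and 5.27 CPM (0.76 ± 0.15, adjusted p = 0.0338), 1 of 2 members called where 3.8% of genes passed. This call was lost in 5 of 6 fits that left out a library, all but that without control 1, with adjusted p up to 0.156 (without restricted 2). Snell dwarf males had 10.9, 10.7 and 5.17 CPM against 3.27, 4.05 and 3.38 CPM (1.34 ± 0.30, adjusted p = 0.0166). It was lost without Snell dwarf 2 or any 1 of the 3 controls, with adjusted p up to 0.0744 (without control 1), and was 1.16 (adjusted p = 0.0405) without the muscle-marked Snell dwarf 1. GHRKO males had 7.56, 4.62 and 3.45 CPM and overlapped their controls (3.17, 3.51 and 4.51 CPM).

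17-alpha-estradiol males held the highest Isyna1 mean of the 26 groups, at 24.9 ± 3.1 CPM, and their libraries lay above the next group, acarbose females of 6 months (14.7 CPM), without overlap. 17-alpha-estradiol females had rank 3 at 14.4 ± 1.3 CPM and did not separate from acarbose females. Below them the ranges separated at the step to methionine-restricted males (10.4 CPM) and at the step from Protandim males to control males of 6 months. The other 22 of the 25 steps overlapped.

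**Figure D3:**
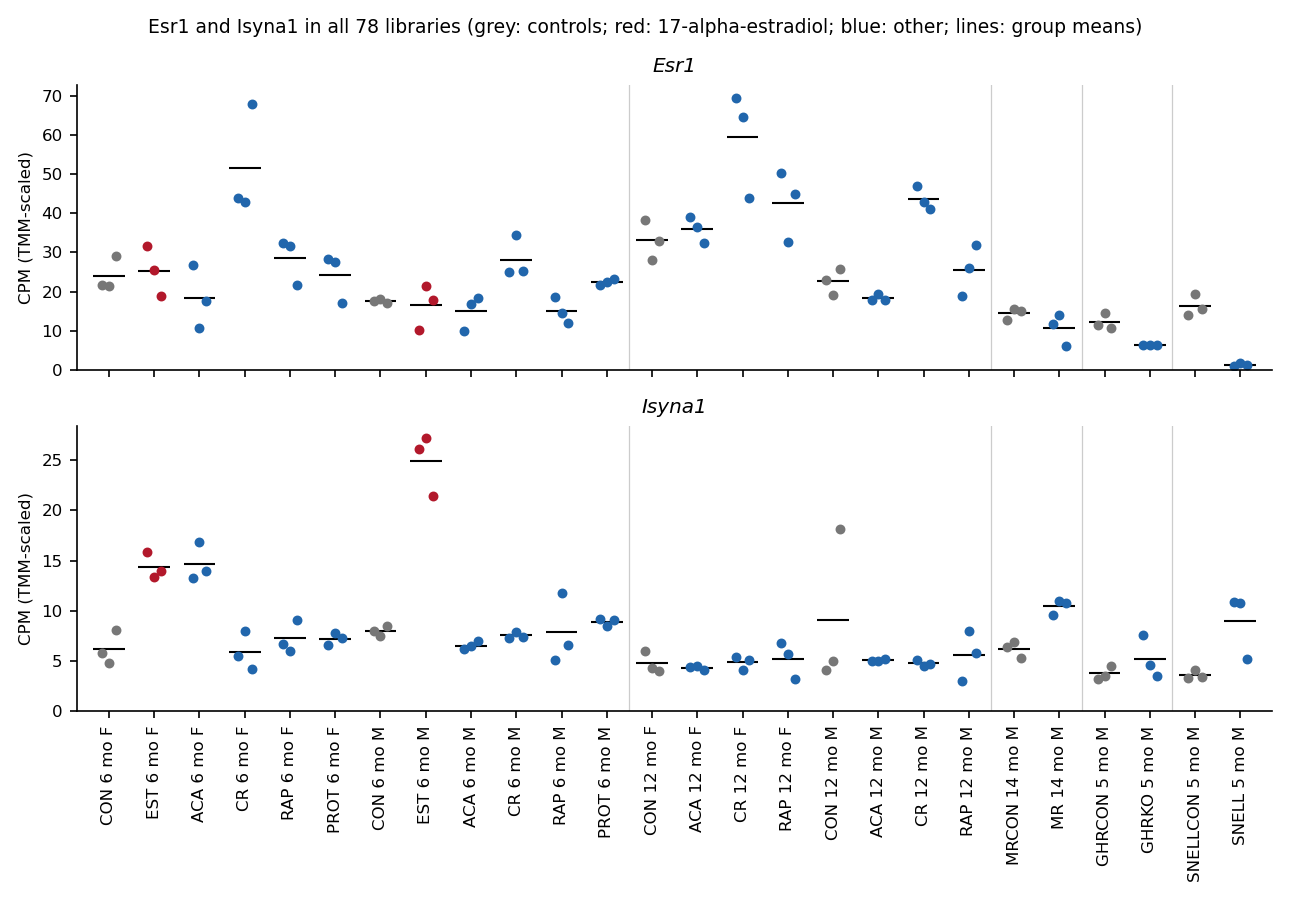
Esr1 and Isyna1 in all 78 libraries, in TMM-scaled CPM on linear axes from 0. Points are libraries (grey controls, red 17-alpha-estradiol, blue other interventions), and short lines are group means. Esr1 is highest in calorie-restricted females of 12 months and lowest in Snell dwarf males, and Isyna1 highest in 17-alpha-estradiol males.

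Mmd2 was called higher in 2 other comparisons and lower in 0. Calorie-restricted males of 6 months had 2.75, 2.53 and 5.93 CPM against 0.846, 0.856 and 1.48 CPM (1.80 ± 0.53, adjusted p = 0.0328), 1 of 2 members called where 7.84% of genes passed. The call was lost without control 1 (adjusted p = 0.126), control 2 (0.108) or restricted 3 (0.20, with a value of 1.29), and also without the filter on low counts (0.0755) or with only the compared groups fitted (0.0574). It held without the other-tissue libraries (2.00, adjusted p = 0.041). GHRKO males had 14.9, 20.1 and 6.84 CPM against 2.28, 3.46 and 3.34 CPM (2.22 ± 0.40, adjusted p = 0.0115), a call that held without each library in turn.

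Several other groups had raised Mmd2 that did not pass. Protandim males of 6 months had 5.11, 6.24 and 7.65 CPM, all above the control males (2.56 ± 0.53, adjusted p = 0.126 by edgeR and 0.00076 by DESeq2). Restricted females of that age had 5.69, 7.14 and 8.87 CPM, above every control female (1.34 ± 0.49, adjusted p = 0.0583 by edgeR and 0.0351 by DESeq2, and by edgeR 0.108 without the other-tissue libraries). Acarbose females of 12 months had 25.8, 40.2 and 24.9 CPM against 7.23, 10.8 and 12.0 CPM (1.59 ± 0.51, adjusted p = 0.684). Their mean of 30.3 CPM was the highest of the 26 groups, and 17-alpha-estradiol females (17.2 ± 2.2 CPM) and males (10.3 ± 2.9 CPM) had ranks 3 and 5. At none of the 25 steps in this order did the libraries of neighbouring groups separate.

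Osbpl3 was called in 0 of the 17 other comparisons by edgeR. Its unadjusted p was under 0.05 in 3 of them, each with a lower mean under treatment. Acarbose females of 6 months had 5.38, 3.61 and 1.93 CPM, below all their controls (-1.16 ± 0.39, adjusted p = 0.0521). Methionine-restricted males had 1.52, 0.904 and 2.17 CPM against 3.58, 10.3 and 30.8 CPM (-3.28 ± 0.78, adjusted p = 0.0722), where the controls themselves were widely spread. Protandim males had 9.40, 8.26 and 10.0 CPM and overlapped their controls (-0.88 ± 0.37, adjusted p = 0.743). By DESeq2 the first and second of these passed (adjusted p = 0.0182 and 0.00536), and GHRKO males passed in the other direction (1.67, adjusted p = 0.0357).

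The Osbpl3 means of 17-alpha-estradiol males (39.0 ± 3.9 CPM) and females (23.7 ± 5.1 CPM) were the 2 highest of the 26 groups, and they separated from each other without overlap. The lowest mean, 1.53 CPM, was that of methionine-restricted males. At the other 24 steps neighbouring groups overlapped.

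Tnfrsf19 was called higher in both dwarf lines. GHRKO males had 9.39, 9.53 and 9.03 CPM against 4.11, 4.97 and 5.98 CPM (0.90 ± 0.18, adjusted p = 0.0118), and Snell dwarf males 12.3, 11.8 and 14.2 CPM against 6.15, 7.37 and 7.39 CPM (0.89 ± 0.15, adjusted p = 0.00451). Both held without each library in turn and under every alternative fit run. Under calorie restriction at 12 months the values lay on the other side. Restricted males had 1.62, 2.42 and 2.88 CPM against 7.12, 5.71 and 6.20 CPM (-1.44 ± 0.42, adjusted p = 0.071 by edgeR and 0.0223 by DESeq2). Snell dwarf males had the highest mean of the 26 groups (12.8 CPM) and separated from the next, GHRKO, while 17-alpha-estradiol males and females had ranks 4 and 7.

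**Figure D4:**
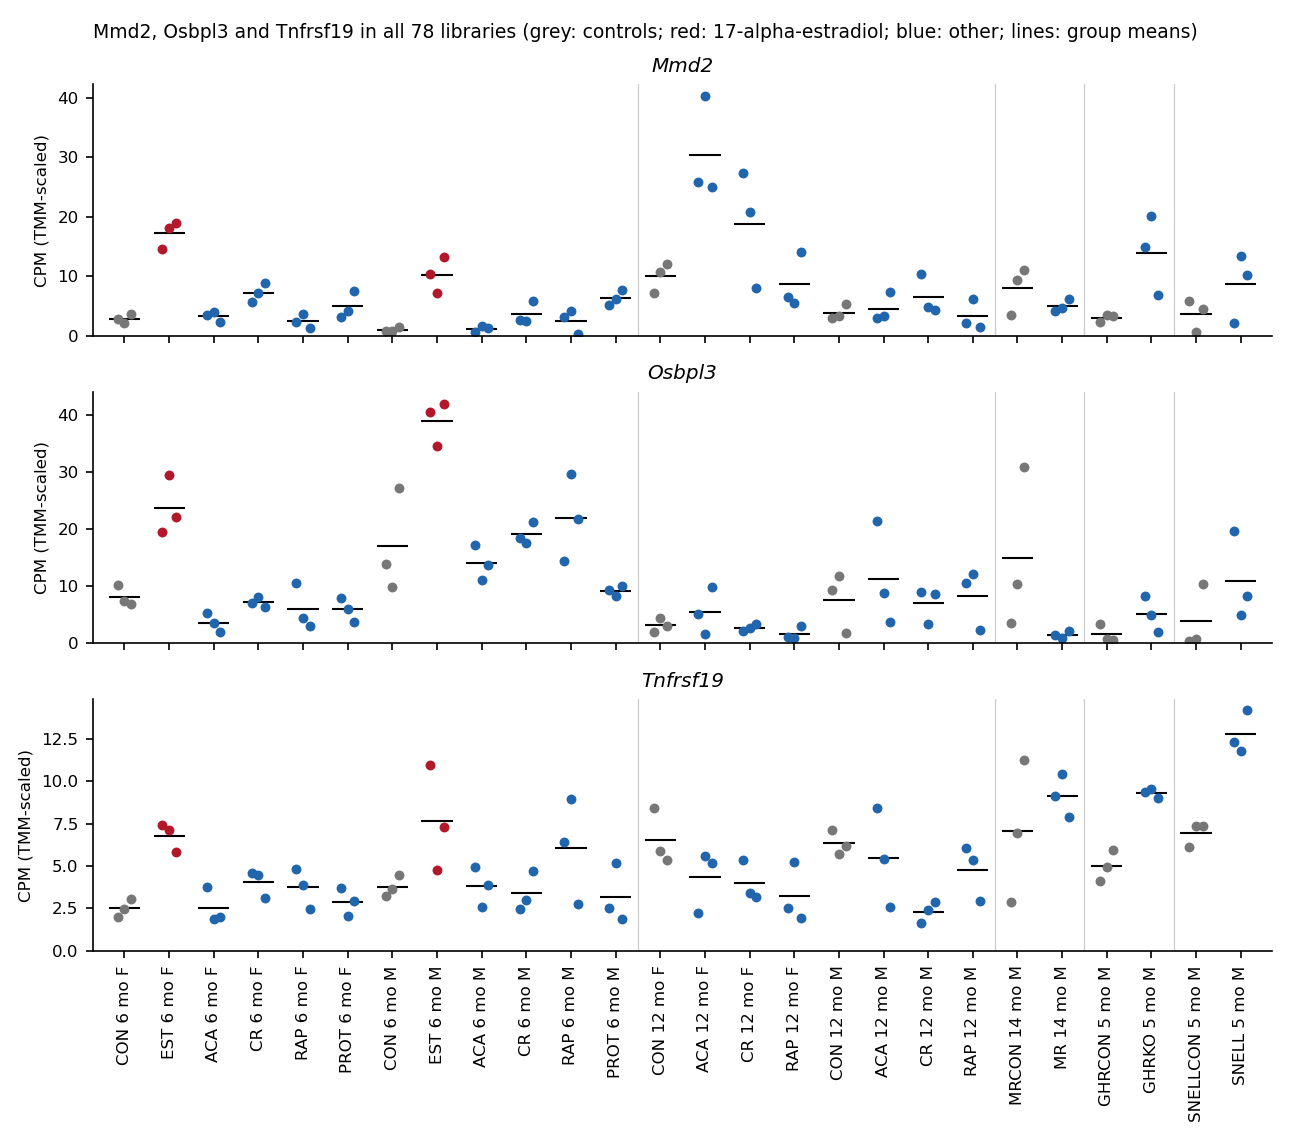
Mmd2, Osbpl3 and Tnfrsf19 in all 78 libraries, in TMM-scaled CPM on linear axes from 0. Points are libraries (grey controls, red 17-alpha-estradiol, blue other interventions), and short lines are group means. The red group means are the highest for Osbpl3, while acarbose females of 12 months lead for Mmd2 and Snell dwarf males for Tnfrsf19.

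Tff3 was called lower in 2 of the 15 other comparisons that tested it, the female ones on few counts. Methionine-restricted males had 1, 0 and 2 counts against 93, 91 and 130 in their controls (adjusted p = 0.000569). Summed over each group, controls had 115 times the restricted level in CPM (exact 95% interval 38.9 to 556, which covers counting error only). This call held without each library in turn. Calorie-restricted males of 6 months had 9, 3 and 3 counts against 6, 23 and 68 (-2.74 ± 0.78, adjusted p = 0.0289). That call was lost without control male 3, a library with 1806 counts of the 6 adipocyte markers against 185 and 97 in the other control males. Without it the value was -1.72 (adjusted p = 0.241). The call was also lost without restricted 2 (-2.50, adjusted p = 0.128), without restricted 3 (-2.50, adjusted p = 0.121) and without the filter on low counts (adjusted p = 0.064), and without the libraries marked for other tissues it was -2.51 (adjusted p = 0.134).

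Tff3 counts were low in the other female groups. The 12 female libraries given acarbose, calorie restriction, rapamycin or Protandim at 6 months had 0 to 7 counts, and the 12 female libraries of 12 months 0 to 2. Among males, single libraries were as high as those under 17-alpha-estradiol: calorie-restricted male 3 of 12 months had 227 counts beside 1 and 3, and rapamycin male 2 of that age 275 beside 6 and 1. Neither comparison passed. Whether the counting used strand is not given in the sources used here.

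**Figure D5:**
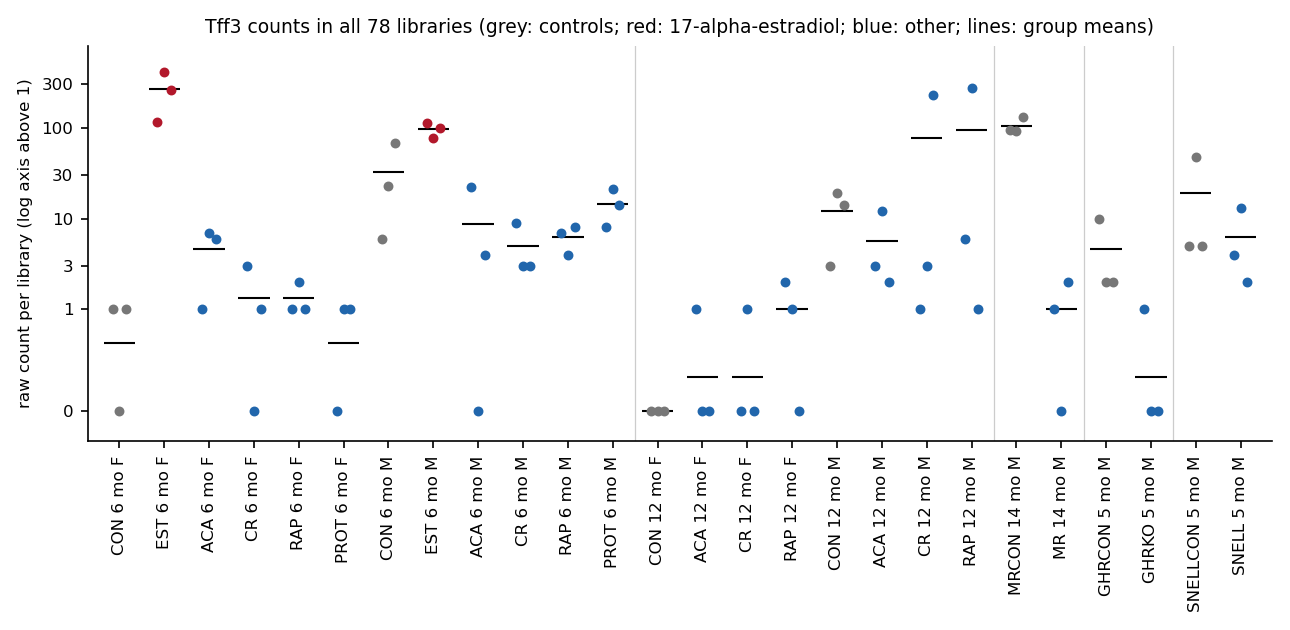
Raw Tff3 counts per library in the 26 groups, on an axis that is linear from 0 to 1 and logarithmic above 1. Points are libraries (grey controls, red 17-alpha-estradiol, blue other interventions), and short lines are group means. All 3 libraries of 17-alpha-estradiol females have 115 to 413 counts and control females 0 to 1, and among the other groups only methionine-study controls have all 3 libraries above 90.

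In the remaining 9 comparisons 0 members were called by edgeR, with an unadjusted p under 0.05 in 7 pairs and 1 pair called by DESeq2 (Mmd2 in Protandim males). Few genes were called at all in most of these: 0% for acarbose and 0% for rapamycin in males of 6 months, 0.0742% for rapamycin and 5.35% for Protandim in females of that age, and 0.0135% for Protandim in males. At 12 months the shares were 0% and 0.022% for acarbose in females and males, and 0.0147% and 0.00733% for rapamycin. An uncalled member there does not show that it was unchanged.

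Differences between the sexes were tested in libraries that did not choose the genes. In the 12-month controls 0 of the 6 members passed, where 2.88% of all genes did. By unadjusted p, 3 were under 0.05 (Isyna1, Mmd2 and Esr1), and DESeq2 called 0. Isyna1 overlapped between the sexes (male minus female 0.91 ± 0.41, adjusted p = 0.29). Mmd2 had 7.23, 10.8 and 12.0 CPM in females and 3.02, 3.30 and 5.30 CPM in males (male minus female -1.37 ± 0.53, adjusted p = 0.206), and Esr1 38.3, 28.1 and 33.0 CPM in females and 22.9, 19.0 and 25.9 CPM in males (-0.56 ± 0.19, adjusted p = 0.147). Tff3 had 0 counts in all 3 females and 3, 19 and 14 in males, and did not pass (6.52 ± 3.40, adjusted p = 0.392). The summed male level was 11.9-fold a floor of 3 counts over the female group, a ratio that leaves out the spread between mice.

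In the other treated groups of 6 months, with 12 libraries per sex from acarbose, calorie restriction, rapamycin and Protandim, 3 of the 6 members differed between the sexes, where 18.7% of all genes did. Osbpl3 was higher in males, at 8.26 to 29.7 CPM (median 15.9) against 1.93 to 10.5 CPM (median 5.73) in females (1.45 ± 0.19, adjusted p = 1.98e-06). Esr1 was lower in males, at 9.85 to 34.4 CPM (median 20.2) against 10.7 to 68.0 CPM (median 28.0, adjusted p = 0.00725, -0.56 ± 0.15). Tff3 was higher in males, at 0 to 22 counts (median 7.5) against 0 to 7 (median 1), with adjusted p = 0.0021. The ranges of the sexes overlapped for all 3, and the calls held without each of the 24 libraries in turn and under every alternative fit run.

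Whether an intervention changed a member differently in the 2 sexes was tested by the difference of the effects, without 17-alpha-estradiol. Of 42 such differences 1 passed, that of acarbose on Isyna1 at 6 months (male minus female -1.56 ± 0.32, adjusted p = 0.0362), where 0.378% of all genes passed. This call was lost with only the compared groups fitted (adjusted p = 0.132) and in 9 of 12 fits that left out 1 library, with adjusted p up to 0.108. The 3 fits that kept it were those without acarbose female 1, control female 3 or control male 2. Over all genes few sex differences passed in the others, 0.00675% for calorie restriction at 6 months and 0.00733% for acarbose at 12 months among them.

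Lastly, the genes whose group means followed each member most closely were listed, by Pearson correlation of mean log2 CPM over the 26 groups among 10206 expressed genes. These are descriptions over groups that share controls, stocks and ages, and carry no test. Esr1 had the closest partners, with r of 0.88 for Zbtb5, 0.87 for Fut8 and 0.87 for Celsr1. Isyna1 was followed by Rassf1 (0.80), Ttc28 (0.76) and Unc119 (0.74), Mmd2 by Stk17b (0.76), Gbp2b (0.71) and Gbp2 (0.71), and Osbpl3 by Ctsa (0.76), Hsd17b10 (0.74) and Sh3rf1 (0.74). Tnfrsf19 was followed by Tmem241 (0.75), Ktn1 (0.72) and Mat2b (0.72), and Tff3 by Mgat5 (0.69), Galc (0.69) and Apoc2 (0.68).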

How the data were processed

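Liver poly(A) RNA was measured in 78 libraries. Reads were trimmed with Trimmomatic 0.32, aligned with STAR 2.5.2b to GRCm38 and counted per gene with featureCounts 1.5, per the submitters' processing notes, and the authors deposited raw counts per gene. Total counts ran from 15521588 to 37778510 per library, and 42462 of 43629 gene identifiers had a symbol. The labels call the 3 libraries of a group biological replicates.

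The members and the gene lists were chosen with earlier results of these data known. The 6 members were all named. From each list up to 3 genes per direction with the smallest adjusted p were named, or, in lists without a call, examples, some of which were picked after their values were seen (the genes at the ends of a range, Socs2, Sult1e1, Impa1 and Mmd, and the genes named in the dwarf lines). Counts were fitted with edgeR 4.0.16 (filterByExpr, TMM, robust quasi-likelihood test, limma 3.58.1, R 4.3.3) separately for the 36 libraries of 6 months, the 24 of 12 months and each of the 3 other designs (6 libraries each). Benjamini-Hochberg adjustment ran over all genes of a fit, with a threshold of 0.05. CPM used TMM factors over all 78 libraries, and FPKM divided CPM by exon length. Intervals for count ratios are exact at 95% and cover counting error only. Alternatives were DESeq2 1.42.0 size factors and test, no filter, a replicate block, only the compared groups, leaving out libraries with over 1000 counts of kidney, muscle, adrenal or pancreas markers, and leaving out each library. The script was tested on simulated data. The values of some genes of the lists are not reported here.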

Additional observations from a re-analysis of the deposited data

Results flagged for a closer look

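The effect of acarbose on Isyna1 at 6 months differed between the sexes by the test of the difference itself. The male effect minus the female effect was -1.56 ± 0.32 on the log2 scale (edgeR interaction, adjusted p = 0.0362), the 1 call among 42 such differences tested for the 6 genes, where 0.378% of all genes passed in the acarbose difference. Isyna1 was higher in all 3 acarbose females than in any control female and lower in all 3 acarbose males than in any control male. The call was lost with only the compared groups fitted (adjusted p = 0.132) and held in 3 of the 12 fits that left out 1 library, with adjusted p from 0.0087 to 0.108 and values from -1.79 to -1.40. The controls of both sexes are the same libraries that served to choose the gene.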

How the results depend on the processing

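Over 35 results, 502 recomputed values kept their direction and their side of the threshold or stayed close, 36 lost a call, 19 moved and 0 reversed. A reversal was scored only for single calls of a member. The uncalled Esr1 value under 17-alpha-estradiol changed sign when 1 library was left out (-0.14 to 0.24 in females, -0.33 to 0.16 in males). The number of genes called for 17-alpha-estradiol in females (425) was 128 without the filter on low counts, 108 with only the compared groups fitted and 833 with DESeq2, and ran from 20 (without control female 1) to 279 when 1 library was left out. In males (9) it was 3 without the other-tissue libraries and 52 with DESeq2, and ran from 2 to 79 when 1 library was left out. In the 12-month controls 1 member, Mmd2, differed between the sexes with only the compared groups fitted, against 0 otherwise, and 0 in every fit that left out 1 library. Of the 14 member calls in the other interventions, 11 to 14 were kept over the 6 alternative fits, fewest with only the compared groups fitted. The total of member calls was 12 to 20 over those fits and 12 to 16 when 1 library was left out. For Tff3 in calorie-restricted males of 6 months the fit of only the compared groups gave no value, because the gene did not pass the filter on low counts there.

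Replicate numbers did not pair the libraries: same-numbered treated and control libraries had correlations of their deviations of -0.01, -0.20 and -0.11 in females and 0.02, -0.13 and -0.20 in males. With the replicate block 398 genes passed in females and 5 in males, and 15 member calls in the other interventions. Low counts limit Tff3 most, followed by Mmd2 in control males.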

Other observations

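Single libraries stood apart from the other 2 of their group for several of these genes, in groups too small for an outlier test. Tff3 had 48 counts in Snell control 2, beside 5 and 5. In calorie-restricted male 3 of 12 months, with 227 Tff3 counts, the cholangiocyte markers summed to 76.0 CPM, beside 81.4 and 73.9 CPM in the other 2 libraries. In rapamycin male 2 of that age, with 275 Tff3 counts, they summed to 91.0 CPM, beside 101 and 99.0 CPM. Control male 3 of 12 months had 18.1 CPM of Isyna1, beside 4.05 and 4.93 CPM, and had 1.86 CPM of Osbpl3, beside 9.32 and 11.8 CPM. Osbpl3 had 10.3 CPM in Snell control 3, beside 0.458 and 0.737 CPM. In the methionine study, where all 3 controls had 91 to 130 Tff3 counts, cholangiocyte markers summed to 69.9 to 139 CPM in controls and 85.2 to 103 CPM in restricted males.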
